A study of Mus musculus with 7 samples.

Results

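Type I interferon-stimulated genes were described in GFP-positive adrenal cells sorted from 2 reporter strains of mice. The 39 genes were chosen by name as well-known targets of type I interferon, each was represented by 1 transcript cluster of a mouse gene array, and all 39 were among the 20719 genes measured. Both strains were on a C57BL/6J background, and all animals were males of 6 weeks. In the SF1+ group (4 arrays) eGFP was driven by a BAC fragment of Nr5a1, the gene of the steroidogenic factor SF1 (Sf1:eGFP). In the Wnt+ group (3 arrays) an H2B-GFP fusion protein was driven by multimerised TCF/Lef sites with a minimal Hspa1b promoter (TCF/Lef:H2B-GFP), which reports canonical Wnt signalling. Each array held RNA from 1 sort of 10 pooled adrenals, sorted as live GFP-positive cells after collagenase digestion, and the labels name no agent given to the animals. Each group is 1 transgenic line, so the line, its reporter and the sorted population cannot be told apart. The sorts do not hold cortical cells alone, as the marker lists of other cell types showed.

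Type I interferons are secreted proteins that cells make after RNA or DNA sensors detect a virus or other misplaced nucleic acid. They bind the receptor IFNAR, whose kinases JAK1 and TYK2 phosphorylate STAT proteins. With IRF9 these form a factor that binds the interferon-stimulated response element (ISRE) in target promoters. The targets include the sensors themselves, proteins that block viral RNA, translation and membrane fusion, and brakes on the receptor. Many cell types keep a low tonic level of these genes, and plasmacytoid dendritic cells, which make interferon in large amounts, hold high levels of IRF7.

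All 39 genes had a lower mean in Wnt+ than in SF1+, as did 45.2% of all genes. Values are log2 levels after robust multi-array averaging (RMA), and every difference is Wnt+ minus SF1+ on that scale. The median difference of the 39 genes was -1.27, against 0.02 over all genes, and the differences ran from -2.37 for Oas1a to -0.29 for Oas3. In 31 of the 39 genes every Wnt+ array lay below every SF1+ array, where 7.07% of all genes did so and 7.04% lay wholly higher. An unadjusted limma p under 0.05 with a lower level in Wnt+ was found for 36 of the 39 and for 7.89% of all genes. A difference of -1 or below was found for 25 of the 39 and for 2.95% of all genes. After Benjamini-Hochberg adjustment over all genes, 4 of the 39 passed limma's test at 0.05 as lower and 0 as higher, where 0.203% of all genes passed as lower and 0.0531% as higher. The 4 were Parp12, Rsad2, Bst2 and Ifit3, and 11 more had an adjusted p between 0.05 and 0.1. The count of 4 moved with single libraries. Leaving out Wnt+ replicate 1 raised it to 14, and leaving out SF1+ replicate 1 or Wnt+ replicate 2 lowered it to 1. It dropped to 0 when any of SF1+ replicates 2, 3 and 4 or Wnt+ replicate 3 was omitted. Across these 7 fits, 32 to 35 genes had an unadjusted limma p under 0.05. The count without overlap was 31 to 35, but leaving out an array cannot lower it below the 31 of all arrays. In bulk RNA, fewer cells that express these genes and less of their RNA per cell cannot be told apart. Nr5a1 was at 6.41, 5.38, 5.44 and 5.75 in the SF1+ arrays and at 6.87, 7.61 and 7.41 in the Wnt+ arrays (difference 1.55, SE 0.29, limma adjusted p = 0.0938), so the gene of the first reporter ran against the label of its sort, and directions here follow the labels.

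**Figure D1:**
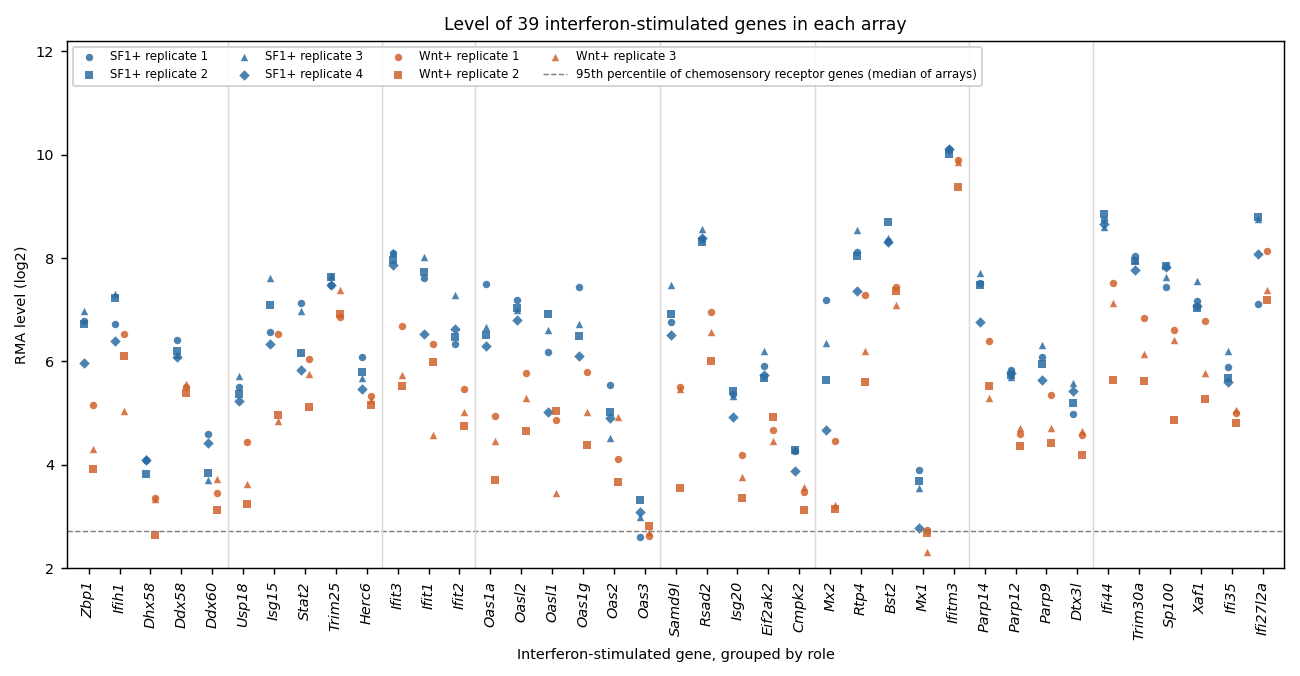
Level of each of the 39 interferon-stimulated genes (log2, RMA) in each of the 4 SF1+ arrays (blue) and 3 Wnt+ arrays (orange), with marker shape giving the replicate and vertical lines separating roles. The Wnt+ points lie below the SF1+ points in 31 genes, and the dashed line marks the 95th percentile of 1320 olfactory and vomeronasal receptor genes.

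Most of the 39 genes still read in Wnt+ above genes that the adrenal should not use. As a reference, the 95th percentile of 1320 olfactory and vomeronasal receptor genes was taken in each array, and it lay at 2.68 to 2.80. All 3 Wnt+ arrays were above it for 36 of the 39 genes, and all 4 SF1+ arrays for 38. This is a low bar, since the median of all genes in each array, 3.13 to 3.23, was above it too. Those not above it in every Wnt+ array were Mx1, Oas3 and Dhx58, whose differences are compressed near this floor. The mean of the 39 genes was 6.59, 6.53, 6.68 and 6.20 in SF1+ replicates 1 to 4 and 5.60, 4.82 and 5.12 in Wnt+ replicates 1 to 3. Every Wnt+ array was therefore below every SF1+ array in the mean, and the distance was smallest between SF1+ replicate 4 and Wnt+ replicate 1. The spread between Wnt+ arrays was large. The median SD of the 39 genes was 0.50 in Wnt+ and 0.27 in SF1+, where the medians over all genes were 0.17 and 0.16. Genes at least as bright as the dimmest of the 39 had median SDs of 0.26 and 0.25. In Wnt+ that dimmest gene, Mx1 at a mean of 2.58, was near the floor, so this set was not matched to the 39 for level.

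Among the 4 genes past the threshold were an antiviral radical enzyme, a surface tether of virions, an IFIT protein and a PARP family member. Rsad2 encodes viperin, which makes a chain-terminating nucleotide that stops viral RNA synthesis. It was at 8.37, 8.31, 8.57 and 8.39 in the SF1+ arrays and at 6.96, 6.00 and 6.57 in the Wnt+ arrays. The SF1+ arrays lay close together and the highest Wnt+ array was 1.35 below the lowest of them. Rsad2 fell by 1.90 (SE 0.22, limma adjusted p = 0.0405), or 3.73-fold. Ifit3, which binds IFIT1 and stabilises it on viral RNA that lacks the host cap mark, was at 8.10, 7.97, 8.11 and 7.87 in SF1+ and at 6.68, 5.52 and 5.73 in Wnt+. Its groups were 1.18 apart, with replicate 1 the highest of the Wnt+ arrays, and it fell by 2.03 (SE 0.27, limma adjusted p = 0.0495), or 4.09-fold. Bst2, or tetherin, holds budding virions at the cell surface and is also a surface antigen of mouse plasmacytoid dendritic cells. It was at 8.32, 8.69, 8.39 and 8.31 in SF1+ and at 7.44, 7.36 and 7.09 in Wnt+, and fell by 1.13 (SE 0.13, limma adjusted p = 0.0424). Parp12, a zinc finger member of the PARP family that restricts viral translation, had the smallest p of the 39. It was at 5.83, 5.74, 5.70 and 5.78 in SF1+ and at 4.60, 4.36 and 4.71 in Wnt+, and fell by 1.20 (SE 0.10, limma adjusted p = 0.0243). Omitting any single array left their differences at -2.38 to -1.80 for Ifit3, -2.13 to -1.65 for Rsad2, -1.20 to -1.03 for Bst2 and -1.28 to -1.10 for Parp12. Their adjusted p reached 0.158, 0.139, 0.133 and 0.122.

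The promoters of these genes were inspected for the element bound by this STAT and IRF9 factor. RefSeq windows of 300 bases (250 before to 50 after an annotated start, build GRCm38.p6) were matched by gene ID for 29 of the 39 genes, the others being Dhx58, Usp18, Mx1, Mx2, Oas2, Rtp4, Ifi27l2a, Parp9, Parp14 and Zbp1. The ISRE was searched on both strands as TTTC, any 2 bases, and TTTC again, which reads as GAAA, any 2 bases, and GAAA on the other strand. It was present in 15 of the 29 genes (51.7%), against 3.99% of the 27025 genes with a window and 3.44% of the 32851 windows. The interferon gamma element (GAS) was searched as TTCNNNGAA, which reads the same on both strands. It was present in 7 of the 29 genes (24.1%), against 9.55% of all genes with a window and 8.30% of the windows. The genes were picked as known interferon targets, so the share with an ISRE describes the choice, and a match is a description of letters and not a bound site. Windows are printed for the 4 genes past the threshold, then for Oas1a, which had the largest difference, and Isg15, which had the most matches. Each is written 5′ to 3′ on the strand of the gene, with the ISRE matches in capitals:
Ifit3, chr19:34583279-34583578, strand +: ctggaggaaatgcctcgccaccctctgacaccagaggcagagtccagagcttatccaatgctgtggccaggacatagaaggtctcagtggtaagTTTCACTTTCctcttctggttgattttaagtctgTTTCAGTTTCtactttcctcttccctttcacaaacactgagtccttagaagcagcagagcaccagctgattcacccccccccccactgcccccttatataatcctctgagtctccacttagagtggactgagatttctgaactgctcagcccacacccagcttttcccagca
Rsad2, chr12:26456403-26456702, strand -: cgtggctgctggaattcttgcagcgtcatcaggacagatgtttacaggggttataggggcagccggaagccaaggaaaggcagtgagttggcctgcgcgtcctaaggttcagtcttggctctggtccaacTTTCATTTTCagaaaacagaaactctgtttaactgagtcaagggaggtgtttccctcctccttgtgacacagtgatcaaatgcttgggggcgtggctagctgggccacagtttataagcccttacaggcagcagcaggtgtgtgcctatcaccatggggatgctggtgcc
Bst2, chr8:71537423-71537722, strand -: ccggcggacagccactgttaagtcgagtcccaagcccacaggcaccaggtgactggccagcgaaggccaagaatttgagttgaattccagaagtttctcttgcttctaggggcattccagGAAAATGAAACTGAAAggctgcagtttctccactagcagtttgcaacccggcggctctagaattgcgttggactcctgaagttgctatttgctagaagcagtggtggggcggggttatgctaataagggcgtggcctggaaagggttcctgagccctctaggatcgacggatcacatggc
Parp12, chr6:39118300-39118599, strand -: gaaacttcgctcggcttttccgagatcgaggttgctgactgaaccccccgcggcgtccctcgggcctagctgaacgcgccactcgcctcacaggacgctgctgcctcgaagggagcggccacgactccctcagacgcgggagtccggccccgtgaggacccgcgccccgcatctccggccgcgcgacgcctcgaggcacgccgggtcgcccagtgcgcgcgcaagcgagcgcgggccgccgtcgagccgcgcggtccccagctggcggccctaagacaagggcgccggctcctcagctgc
Oas1a, chr5:120907476-120907775, strand -: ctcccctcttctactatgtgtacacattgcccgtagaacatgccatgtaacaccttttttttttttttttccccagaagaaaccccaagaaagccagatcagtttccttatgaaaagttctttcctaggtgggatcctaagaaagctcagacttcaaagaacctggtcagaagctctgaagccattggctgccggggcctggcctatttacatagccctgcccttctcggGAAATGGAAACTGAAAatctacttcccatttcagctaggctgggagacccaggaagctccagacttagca
Isg15, chr4:156200769-156201068, strand -: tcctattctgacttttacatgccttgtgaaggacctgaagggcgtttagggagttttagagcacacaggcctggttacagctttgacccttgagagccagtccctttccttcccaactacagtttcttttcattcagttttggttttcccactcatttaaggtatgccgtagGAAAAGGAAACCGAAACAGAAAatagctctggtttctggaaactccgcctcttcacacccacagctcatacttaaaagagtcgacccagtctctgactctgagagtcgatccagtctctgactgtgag
Ifit3 held 2 separate matches, from -156 to -147 and from -122 to -113 relative to the start. In Bst2 a pair of matches overlapped between -130 and -115, next to a GAS match from -136 to -128 that shares bases with the first of them. Rsad2 held 1 match, from -120 to -111. Parp12 held none in its window. In Isg15 3 matches overlapped between -78 and -57. Oas1a and its paralog Oas1g each held 2 overlapping matches close to the start, at -20 to -5 and -18 to -3. The 15 genes with an ISRE in a window had a median difference of -1.19, the 14 without one -1.38, and the 10 with no window -1.40.

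**Figure D2:**
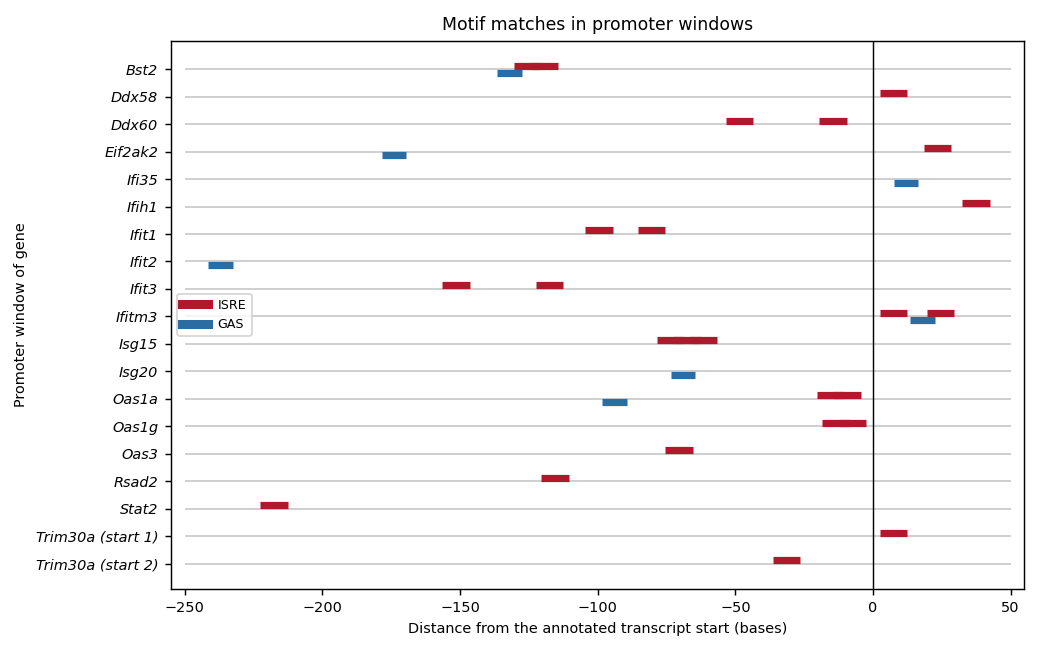
Positions of ISRE (red) and GAS (blue) matches in the promoter windows that held at least 1 match, in bases from the annotated transcript start at 0, with each grey line spanning the window. ISRE matches were found in 15 genes on either side of the start, and Trim30a is drawn for 2 annotated starts.

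Of the 5 nucleic acid sensors, 5 had an unadjusted limma p under 0.05, 0 passed after adjustment and 3 did not overlap between the groups. Over all genes, 7.89% were lower at such a p and 7.07% lay wholly lower. These shares stand beside the counts by role below. Ddx58 encodes RIG-I, which detects RNA ends that lack a host cap. It was at 6.41, 6.20, 6.13 and 6.09 in SF1+ and at 5.50, 5.40 and 5.56 in Wnt+, and differed by -0.72 (SE 0.10, limma adjusted p = 0.0561). The groups did not overlap, and both were tight. Ifih1 encodes MDA5, the sensor of long double-stranded RNA, and its groups overlapped. It was at 6.72, 7.23, 7.30 and 6.40 in SF1+ and at 6.54, 6.10 and 5.04 in Wnt+ (-1.02, SE 0.39, limma adjusted p = 0.274). Dhx58 encodes LGP2, which tunes the other sensors, and differed by -0.92 (SE 0.19) near the floor of the values. Zbp1, a sensor of Z-form nucleic acid that can start necroptosis, had the largest difference of the sensors. It was at 6.78, 6.72, 6.97 and 5.97 in SF1+ and at 5.15, 3.92 and 4.30 in Wnt+ (-2.15, SE 0.34, limma adjusted p = 0.0703). Ddx60, a helicase linked to RIG-I signalling, differed by -0.71 (SE 0.26), with overlapping groups.

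The 5 genes of the receptor's signal and its feedback differed by -1.68 to -0.51, and 0 passed after adjustment (5 at an unadjusted limma p under 0.05). Usp18 encodes the enzyme that removes ISG15 from proteins and blocks IFNAR, and it is a sensitive readout of the pathway. It was at 5.51, 5.38, 5.72 and 5.23 in SF1+ and at 4.44, 3.25 and 3.64 in Wnt+ (-1.68, SE 0.28, limma adjusted p = 0.0732). The groups lay 0.78 apart. Isg15 is the ubiquitin-like protein that USP18 removes, and its groups overlapped. It was at 6.57, 7.09, 7.62 and 6.34 in SF1+ and at 6.54, 4.96 and 4.84 in Wnt+ (-1.46, SE 0.49, limma adjusted p = 0.224). Wnt+ replicate 1 lay within the SF1+ range, and the other two Wnt+ arrays were far below it. Herc6, the mouse ligase that attaches ISG15, differed by -0.51 (SE 0.15), as did Trim25 (SE 0.14), a ligase that activates RIG-I. Stat2, a subunit of the ISRE-binding factor, was at 7.13, 6.17, 6.98 and 5.84 in SF1+ and at 6.05, 5.12 and 5.75 in Wnt+. Its difference of -0.89 (SE 0.37, limma adjusted p = 0.32) came with overlapping groups.

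The IFIT and OAS families held several of the larger differences. IFIT proteins bind foreign RNA and stop its translation. Ifit1 was at 7.61, 7.72, 8.01 and 6.53 in SF1+ and at 6.34, 5.98 and 4.58 in Wnt+ (-1.84, SE 0.50, limma adjusted p = 0.163), with SF1+ replicate 4 and Wnt+ replicate 1 only 0.19 apart. Ifit2 differed by -1.60 (SE 0.26, limma adjusted p = 0.0732), with the groups 0.86 apart. OAS proteins sense double-stranded RNA and make 2′-5′-linked oligoadenylates, which switch on the nuclease RNase L. Oas1a was at 7.50, 6.52, 6.66 and 6.30 in SF1+ and at 4.95, 3.71 and 4.47 in Wnt+ (-2.37, SE 0.37, limma adjusted p = 0.0685). All Wnt+ arrays were at least 1.35 below SF1+. Oas1g, its near copy, differed by -1.62 (SE 0.41), and probes of such paralogs may share signal, which was not tested. Oasl2 differed by -1.76 (SE 0.25, limma adjusted p = 0.0582) without overlap, and Oasl1, a brake on Irf7 translation in mice, by -1.72 (SE 0.55) with overlap. Oas2 (-0.77, SE 0.34) and Oas3 (-0.29, SE 0.17) overlapped between the groups, and Oas3 was near the floor in both. Of the 6 OAS family genes, 4 had an unadjusted p under 0.05 and 0 passed after adjustment.

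Effectors that act on translation and nucleotides did not overlap between the groups in any of the 5 genes measured. Eif2ak2 encodes PKR, the kinase that stops translation on sensing double-stranded RNA. It was at 5.91, 5.68, 6.20 and 5.74 in SF1+ and at 4.68, 4.92 and 4.46 in Wnt+ (-1.19, SE 0.16, limma adjusted p = 0.0517). Isg20, an RNA exonuclease, differed by -1.49 (SE 0.21, limma adjusted p = 0.0592), and Cmpk2, a mitochondrial nucleotide kinase, by -0.79 (SE 0.15, limma adjusted p = 0.0987). Cmpk2 is the RefSeq neighbour of Rsad2 on chromosome 12. Samd9l, a translation repressor, had the widest Wnt+ spread of the 39 genes, at 5.51, 3.55 and 5.47 against 6.76, 6.91, 7.47 and 6.52 in SF1+ (-2.08, SE 0.51). The low array was Wnt+ replicate 2.

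Among membrane and trafficking effectors, Ifitm3 was the brightest of the 39 genes and had the smallest difference of the group of 5. Ifitm3 blocks fusion of virions in endosomes. It was at 10.11, 10.02, 10.11 and 10.10 in SF1+ and at 9.89, 9.37 and 9.86 in Wnt+ (-0.38, SE 0.14, limma adjusted p = 0.25). The groups did not overlap, although the nearest arrays were only 0.13 apart. Mx2 was at 7.19, 5.64, 6.36 and 4.67 in SF1+ and at 4.47, 3.15 and 3.23 in Wnt+ (-2.35, SE 0.62, limma adjusted p = 0.154), which is the widest SF1+ spread among the 39. Mx1 differed by -0.90 (SE 0.26) near the floor. MX proteins are dynamin-like GTPases that block virus entry or replication, and RefSeq lists both mouse genes as transcribed pseudogenes in this strain. Rtp4, a chaperone of membrane receptors, differed by -1.65 (SE 0.43), from 8.02 ± 0.48 (SD, n = 4) to 6.37 ± 0.85 (SD, n = 3).

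The PARP and ubiquitin ligase genes were lower in Wnt+ in all 4 cases, without overlap. Parp9 and Dtx3l encode partners in 1 complex, and their annotated genes overlap on chromosome 16 beside Parp14. Parp9 differed by -1.17 (SE 0.25, limma adjusted p = 0.113), Dtx3l by -0.82 (SE 0.18, limma adjusted p = 0.119) and Parp14, a mono-ADP-ribosyltransferase, by -1.63 (SE 0.32, limma adjusted p = 0.107). Whether the clusters of the overlapping pair share signal was not tested. Among the other induced genes, Trim30a, a regulator of innate signalling, was at 8.04, 7.94, 7.96 and 7.77 in SF1+ and at 6.84, 5.62 and 6.14 in Wnt+ (-1.73, SE 0.26, limma adjusted p = 0.0659). Its SF1+ arrays were tight and lay 0.93 above Wnt+. Sp100, a nuclear body protein that silences viral DNA, was at 7.43, 7.84, 7.63 and 7.83 in SF1+ and at 6.60, 4.87 and 6.41 in Wnt+ (-1.72, SE 0.40). Ifi44, a widely used interferon readout, differed by -1.94 (SE 0.41), from 8.71 ± 0.11 (SD, n = 4) to 6.77 ± 0.99 (SD, n = 3). Both had their lowest value in Wnt+ replicate 2. Xaf1 (-1.27, SE 0.34), which promotes apoptosis, and Ifi35 (-0.89, SE 0.16) did not overlap between the groups. Ifi27l2a had the widest overlap of the 39 genes, at 7.12, 8.80, 8.76 and 8.08 in SF1+ and at 8.14, 7.19 and 7.39 in Wnt+ (-0.62, SE 0.45, limma adjusted p = 0.584).

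**Figure D3:**
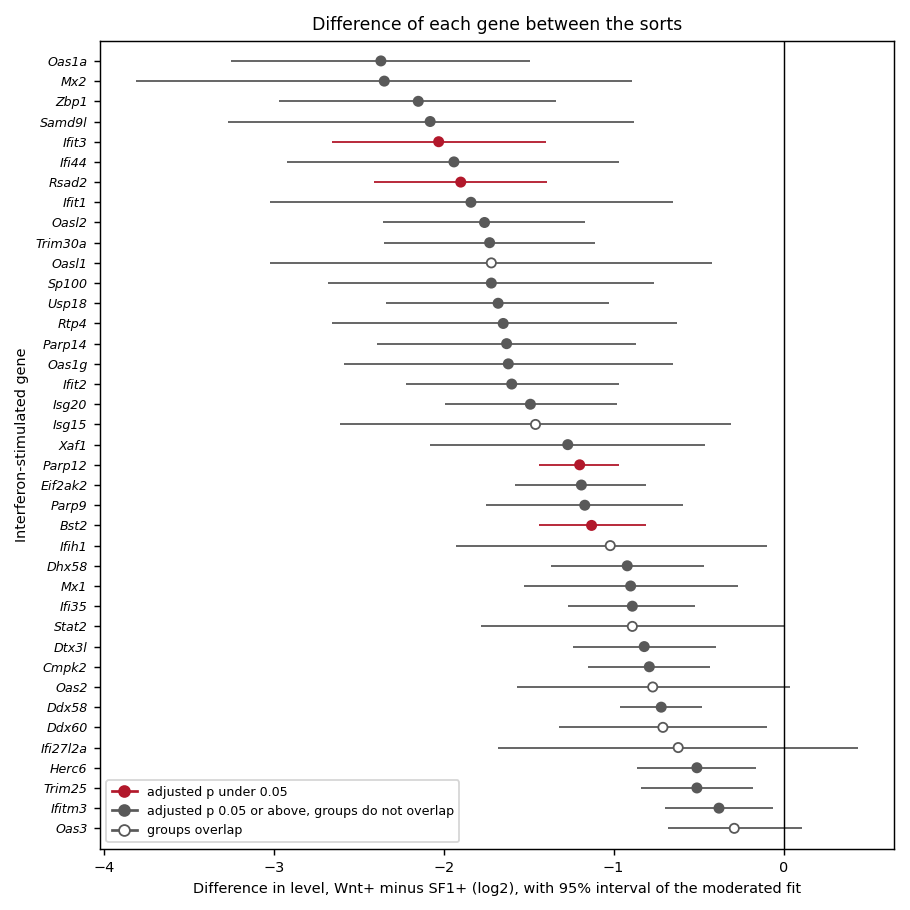
Difference of each gene (Wnt+ minus SF1+, log2) with the 95% interval of limma's moderated fit, ordered by size. All 39 points lie below 0, the 4 genes with an adjusted p under 0.05 are red, and open circles mark the 8 genes whose groups overlap.

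The genes did not all take the same order across arrays. Among the Wnt+ arrays, replicate 2 was lowest for 29 of the 39 genes, replicate 3 for 8 and replicate 1 for 2. The 8 lowest in replicate 3 were Ifit1, Ifih1, Isg15, Oasl1, Mx1, Parp14, Bst2 and Eif2ak2. Among the SF1+ arrays, replicate 4 was lowest for 25 genes and highest for 0, and replicate 3 was highest for 19. Where Wnt+ replicate 1 was left out, the median difference of the 39 genes became -1.69.

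Upstream parts of the pathway were read from lists that were chosen with earlier results of these data known. Of 8 STAT and IRF factors, 2 fell and 0 rose after adjustment over all genes, 7 had a negative difference, and the median difference was -0.91. By unadjusted limma p under 0.05, 6 of the 8 were lower and 1 was higher. Irf7, the factor that amplifies interferon production, was at 7.71, 8.08, 8.49 and 8.03 in SF1+ and at 5.62, 4.75 and 4.68 in Wnt+. It fell by 3.06 (SE 0.27, limma adjusted p = 0.0275), a larger difference than that of any of the 39 genes. Irf8, a factor of dendritic and myeloid cells, fell by 2.33 (SE 0.28, limma adjusted p = 0.0443), and Irf1 differed by -1.24 (SE 0.20, limma adjusted p = 0.0715). Irf9, named for its role after its values were seen, differed by -1.07 (SE 0.38, limma adjusted p = 0.243) with overlapping groups. Of 9 receptor and kinase genes, limma called 0 after adjustment and 5 lower at an unadjusted p under 0.05, and the median difference was -0.50. These included Jak1 (-0.50, SE 0.13), Ifnar2 (-0.50, SE 0.14) and the interferon gamma receptor chains Ifngr1 (-1.33, SE 0.41) and Ifngr2 (-0.85, SE 0.20). Ifnar1, also named for its role afterwards, differed by -0.49 (SE 0.16, limma adjusted p = 0.217).

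The interferon genes themselves gave no such shift. Of 18 type I interferon ligands, limma called 0 after adjustment, 1 lower and 1 higher at an unadjusted p under 0.05, and their median difference was -0.05. Their mean level was 2.74 to 2.92 in SF1+ and 2.76 to 2.90 in Wnt+, about at the chemosensory reference. Of the 18, 8 were above this reference in all 4 SF1+ arrays and 5 in all 3 Wnt+ arrays. Differences of ligands near this floor are compressed. Of 13 genes of nucleic acid sensing upstream of interferon, Tlr3 alone fell after adjustment, by 1.33 (SE 0.16, limma adjusted p = 0.0443). At an unadjusted limma p under 0.05, 3 of the 13 were lower and 1 was higher, and the list median was -0.16. Tlr3 is the endosomal receptor of double-stranded RNA. Of 8 negative regulators outside the 39 genes, limma called 0 after adjustment and 2 lower at an unadjusted p under 0.05 (median -0.18). Of 60 further interferon-stimulated genes, 2 of which also stand in the other lists, 55 had a negative difference, against 45.2% of all genes. In 34 of the 60 every Wnt+ array lay below every SF1+ array, against 7.07% of all genes. In that list 2 fell after adjustment, Tlr3 and Tor3a (-0.86, SE 0.10, limma adjusted p = 0.0423), 0 rose, and the median difference was -0.80. The calls of Irf7, Irf8, Tlr3 and Tor3a each ended in at least 1 fit with an array left out, where their adjusted p reached 0.122, 0.158, 0.148 and 0.145.

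Markers of several other cell types differed between the groups too. Over all genes, 45.2% had a negative difference, 7.07% lay wholly lower and 7.04% wholly higher. At an unadjusted limma p under 0.05, 7.89% of all genes were lower and 7.61% higher. Summed levels of a list are given as log2 of the summed linear values. Of 15 plasmacytoid dendritic cell markers, 13 were lower in Wnt+, and the median difference was -1.02. In 11 of the 15 every Wnt+ array lay below every SF1+ array, and in 1 every Wnt+ array lay above. The sum, which the brightest markers dominate, was 10.77 to 11.00 in SF1+ and 10.46 to 10.69 in Wnt+. Siglech, the lectin that defines these cells in mice, was at 6.43, 6.43, 6.51 and 6.84 in SF1+ and at 3.43, 3.11 and 3.39 in Wnt+, and it alone of the 15 fell after adjustment (-3.24, SE 0.14, limma adjusted p = 0.00123). Spib, a factor of the same cells, was above the chemosensory reference in 0 of the 3 Wnt+ arrays and in all 4 SF1+ arrays. Of 17 natural killer, T and B cell markers, 17 were lower, with sums of 8.07 to 9.77 in SF1+ and 6.92 to 6.95 in Wnt+, and 5 of the 17 stayed above the reference in every Wnt+ array. In that list 3 fell after adjustment, the natural killer receptor chain Klrd1 (-3.23, SE 0.27, limma adjusted p = 0.0243), the T cell kinase Lck (-0.95, SE 0.09, limma adjusted p = 0.0359) and the cytotoxic granule gene Nkg7 (-3.83, SE 0.42, limma adjusted p = 0.0396). Of 15 macrophage and pan-leukocyte markers, 14 were lower, 3 of them at an unadjusted limma p under 0.05, with sums of 10.89 to 12.36 and 10.86 to 11.42. Of 16 endothelial markers, 16 were lower, 14 of them at an unadjusted limma p under 0.05, and 11 did not overlap between the groups. Their sums were 12.21 to 12.58 in SF1+ and 9.93 to 11.97 in Wnt+. The median difference was -1.54 for the endothelial, -0.97 for the lymphoid and -0.22 for the macrophage and pan-leukocyte markers. All 12 adrenocortical markers were above the reference in every array and higher in Wnt+, with sums of 11.37 to 12.09 in SF1+ and 12.46 to 12.93 in Wnt+. All 12 were higher at an unadjusted limma p under 0.05, and 9 did not overlap between the groups. Of the 12, Mrap, an accessory protein of the ACTH receptor, rose by 1.68 (SE 0.18, limma adjusted p = 0.0396) and was the only one past the threshold. The calls of Klrd1, Lck, Nkg7 and Mrap each ended in at least 1 fit with an array omitted, where the adjusted p reached 0.122, 0.122, 0.139 and 0.135. All 10 chromaffin markers were higher too, with sums of 8.92 to 10.58 and 10.43 to 11.73. The part of these other cells in the lower interferon-stimulated genes was not tested.

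By mean level, Wnt+ replicate 2 was the lowest Wnt+ array in each of these lists except the adrenocortical markers. From Wnt+ replicate 1 to 3, the mean log2 level was 7.35, 5.31 and 6.56 for the endothelial markers and 5.60, 4.82 and 5.12 for the interferon-stimulated genes, so replicate 2 was lowest in both. For the macrophage markers the mean was 6.5, 6.12 and 6.79, and for the chromaffin markers 6.94, 5.66 and 6.66. Replicate 2 was lowest there too. For the adrenocortical markers the mean was 8.46, 9.05 and 8.67, and replicate 2 was highest. The lymphoid markers were at 2.76, 2.75 and 2.78, about at the chemosensory reference, where variation could hardly be seen. The dendritic markers were at 4.31, 4.20 and 4.42, a small spread with replicate 2 lowest. In SF1+ the interferon-stimulated genes were lowest in replicate 4, at a mean of 6.20. There the dendritic markers were highest (5.53) and the endothelial markers (7.99) were within 0.01 of their highest value. SF1+ replicate 3 was highest for the interferon-stimulated genes (6.68), the lymphoid markers (4.72) and the endothelial markers (8.00), whereas the macrophage markers were highest in replicate 2 (7.82).

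**Figure D4:**
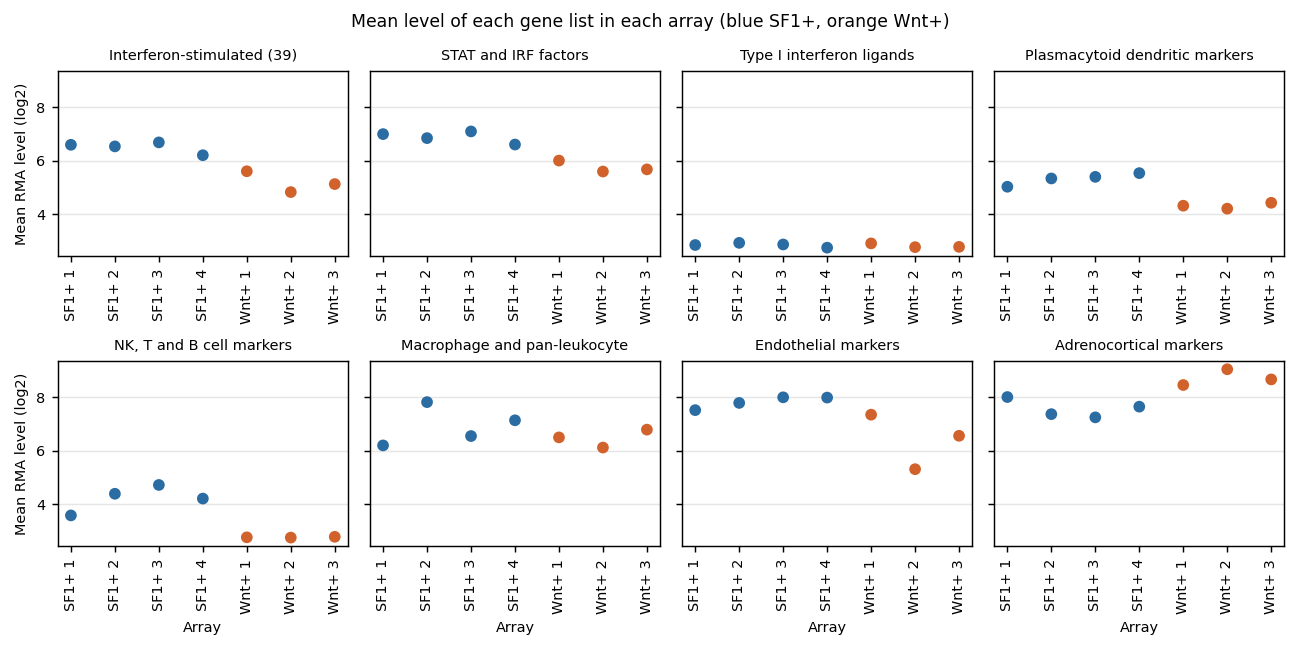
Mean level (log2, RMA) of each gene list in the 4 SF1+ (blue) and 3 Wnt+ (orange) arrays, 1 panel per list. The interferon-stimulated genes, STAT and IRF factors, dendritic, lymphoid and endothelial markers are lower in every Wnt+ array, the adrenocortical markers are higher, and the interferon ligands and macrophage markers overlap.

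A separate experiment gave another readout of the same genes. The authors' deposited table lists, per cluster, a fold and an unadjusted paired p for Bio over Vehicle in 4 pairs of mouse adrenocortical tumor cell lines, whose sample values were not analysed here. In the authors' deposited table, 38 of the 39 interferon-stimulated genes had a fold below 1, as did 53.9% of all genes, and the median fold was 0.639 against 0.991 over all genes. The authors' paired p was under 0.05 with a fold below 1 for 32 of the 39, where 17.3% of all genes met this, and with a fold above 1 for 0, where 18.2% did. A fold of 0.5 or below was listed for 8 of the 39 and for 1.11% of all genes. Folds in the authors' deposited table were lowest for Ifit3 (0.286, p = 0.000649), Ifit1 (0.318, p = 0.00643) and Rsad2 (0.417, p = 0.00131). Usp18 was at 0.608 (p = 0.00179) and Stat2 at 0.650 (p = 0.000391) in the authors' deposited table, while Isg20 was at 1.04 (p = 0.605) and Mx1 at 0.961 (p = 0.169). Across the 39 genes, Spearman's rho between the sort difference and the log2 of the authors' fold was 0.43 and Pearson's r was 0.42, given as a description over genes that are not independent.

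In the same experiment the lists of immune cell markers had median folds near 1, with single genes on either side. The median fold in the authors' deposited table was 0.983 for the 15 dendritic, 0.980 for the 17 lymphoid and 0.965 for the 15 macrophage markers. Of them, 3, 3 and 2 had a paired p under 0.05 with a fold below 1. With a fold above 1 there were 1, 1 and 0, where 17.3% and 18.2% of all genes were lower and higher. Levels in the cell lines were not analysed, so whether the lines express these markers was not tested. For the 12 adrenocortical markers the median fold was 0.613, with 9 genes at such a p and a fold below 1. The adrenocortical markers thus went the same way as the interferon-stimulated genes there and the opposite way in the sorts. Irf7 was listed at 0.521 (p = 0.0475) in the authors' deposited table. Of the 60 further interferon-stimulated genes, 19 had such a p in the authors' deposited table with a fold below 1 and 6 with a fold above 1, against the same 17.3% and 18.2% of all genes, and the median fold was 0.90. The file header names the treatment only as Bio, and its dose was not used here.

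**Figure D5:**
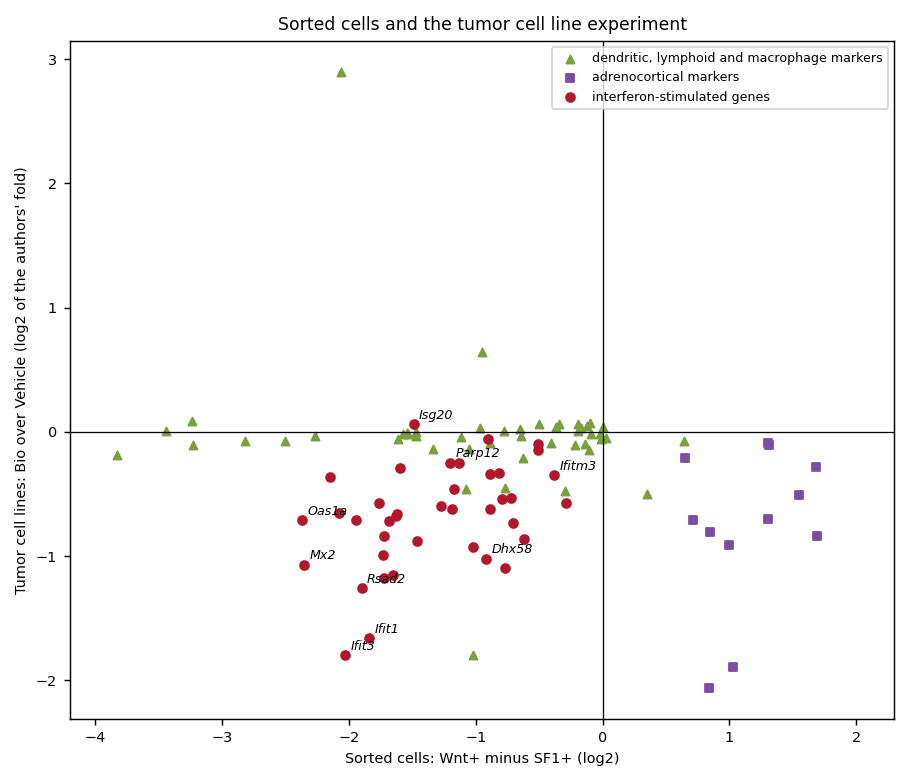
Each point is a gene, with the sort difference (Wnt+ minus SF1+, log2) on the horizontal axis and the log2 of the authors' fold for Bio over Vehicle in tumor cell lines on the vertical axis. The 39 interferon-stimulated genes (red) lie in the lower left except Isg20, dendritic, lymphoid and macrophage markers (green) mostly lie along 0 on the vertical axis, and adrenocortical markers (purple) lie in the lower right.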

How the data were processed

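RNA of each sort (5 ng) was amplified and hybridised to Affymetrix mouse gene arrays, per the labels' protocols, which state 4 sorts per genotype; 3 Wnt+ sorts were analysed here. The authors deposited log2 values per transcript cluster, made with RMA on perfect-match probes, per the file headers, and with oligo, per the submitters' processing notes; tool versions and build: not given in the sources used here. This method equalises the arrays' distributions, so a change of total RNA cannot be seen, and compresses differences of dim genes. The authors also deposited, per the file headers, a t-test p-value and a linear fold for the sorts, and a paired p-value and fold for Bio over Vehicle.

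Clusters without a symbol (5132 of 28944) were left out, symbols were updated through RefSeq gene IDs (GRCm38.p6), and the cluster with the highest mean represented each gene. Groups were compared with limma 3.58.1 in R 4.3.3 (lmFit, eBayes, two-sided, no filter on dim genes, Benjamini-Hochberg over 20719 genes). Standard errors and intervals are those of the moderated fit. The fit was tested on simulated data. The genes, lists and tests were chosen with earlier results of these data known. Named were all 39 genes and, of the pathway lists, the genes past the threshold and at most 4 with the smallest p, and of the marker lists at most 3 with the smallest p, with exceptions stated as such. 1 gene of the pathway lists is not reported here. The labels call the sorts independent. The number of arrays limits the precision. Of the per-sample columns, 7 of a drawing sheet were not used. Alternatives were a replicate block, each array left out, a filter on dim genes, median-centring, repeated quantile normalisation, array weights, trended and robust moderation, the authors' p adjusted, mean clusters, the series matrix values and a threshold of 0.01. Plots used matplotlib 3.10.9 (Python 3.11.15).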

Additional observations from a re-analysis of the deposited data

Results flagged for a closer look

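In 3 of the 39 genes 1 SF1+ array stood apart from the other three by Dixon's ratio, the gap to the nearest array over the range of the group. The 3 Wnt+ arrays were not screened in this way, since the ratio was read only in groups of 4 or more. Chance flags about 1 in 20 groups. The ratio was 0.849 for Dhx58, whose SF1+ replicate 2 was at 3.83 against 4.09 to 4.13. It was 0.941 for Cmpk2, whose SF1+ replicate 4 was at 3.88 against 4.27 to 4.29, nearer to the Wnt+ arrays. It was 0.868 for Ifitm3, whose SF1+ replicate 2 was at 10.02 against 10.10 to 10.11, a gap smaller than the distance between the groups.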

How the results depend on the processing

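In 17 alternative fits, each of the 39 genes kept a negative difference in every fit that tested it (661 values). The stricter threshold, the authors' p, the changed moderation and the filter on dim genes could not alter a gene's difference. Nor could mean clusters or the series matrix, whose values for the 39 genes matched the main ones. The 661 values are therefore not all separate checks. The median difference stayed within -1.46 to -1.17 except without Wnt+ replicate 1 (-1.69), and no gene of the 39 was called higher. The count called lower, 4 in the main setting, and the count of all genes called, 53, moved with most choices. With dim genes left out they were 14 and 221, with trended and robust moderation 12 and 155, after median-centring 2 and 27, with array weights 2 and 33, with the authors' p adjusted 0 and 0 (32 of the 39 at an unadjusted p under 0.05), and at a threshold of 0.01 they were 0 and 1. With each array left out they ranged from 0 to 14 and from 1 to 312, where fewer samples were fitted. Same-numbered arrays did not deviate together (r of -0.217, 0.0344 and -0.214 for replicates 1, 2 and 3). Differently numbered arrays reached values of similar size (up to 0.301), and so few arrays cannot exclude a pairing. With a replicate block limma called 0 of the 39 and 0 of all genes, and 32 of the 39 were lower at an unadjusted p under 0.05. The non-overlap and unadjusted counts under these settings were added after the data were seen. Apart from these, the causes of the moved counts were not tested. Dim genes near the floor, Oas3, Mx1 and Dhx58, have understated differences.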

Other observations

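Ifnb1, chosen after its values were seen, was the ligand with the most uneven level. This gene encodes interferon beta, which most cells can make. It was at 3.29, 6.37, 5.38 and 3.47 in SF1+ replicates 1 to 4 and at 6.06, 5.39 and 2.56 in Wnt+ replicates 1 to 3, so the ranges overlapped widely. Within Wnt+ its lowest array was replicate 3, which was the lowest for 8 of the 39 interferon-stimulated genes, whereas replicate 2 was the lowest for 29.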
